A study of Mus musculus with 12 samples.

Results

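Circular RNAs (circRNAs, here also circles) are closed loops in which an exon's 3′ end is spliced backwards onto an upstream 5′ end, and they are recognised by reads that cross this back-splice junction. The circles described here come from protein phosphatase genes. A circle was taken as a member when it lay within, and had at least 1 end on an exon boundary of, a GENCODE M21 protein-coding mouse gene whose symbol begins with Ppp1 to Ppp6, Ppm1, Ptpn, Ptpr or Dusp. This gave 215 of the 16445 circRNAs in the deposited table, from 52 host genes, and 97 of the 149 annotated genes of these names had no circle in the table. Both ends lay on exon boundaries of the host in 212 members. The other 3, in Ptpn4, Ptprb and Ptprd, matched at 1 end and each was above 0 in 1 library. A single member, Ppp3r1 exons 3 to 5, could also be assigned to an overlapping gene, Wdr92.

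Liver RNA of 12 mice, given in the labels as strain C57BL/8, was sequenced. All mice had the same toxin treatment over 8 weeks, 10% carbon tetrachloride (CCl4) dosed at 10 µl for every 10 g the animal weighed, which is used to produce liver fibrosis in rodents. The 6 Control mice had CCl4 alone, and the 6 PZH mice also had daily PZH (Pien Tze Huang, a Chinese herbal and animal preparation) in water at 25 mg/ml between week 2 and week 8. No liver free of CCl4 was analysed here, so every comparison is of CCl4 with PZH against CCl4 alone.

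Protein phosphatases remove phosphate groups that kinases have added. The serine/threonine enzymes PP1, PP2A, PP4 and PP6 work as a catalytic subunit held by regulatory subunits, which set where and on what the enzyme acts, and calcineurin pairs a catalytic with a calcium-binding subunit. The metal-dependent PPM enzymes act without such subunits, the tyrosine phosphatases (non-receptor Ptpn and membrane-spanning Ptpr) oppose tyrosine kinases, and the dual-specificity enzymes (Dusp) include those that switch off MAP kinases. In liver these enzymes are known for restraining insulin, cytokine and growth factor signalling. A circle from such a gene is a separate RNA: its level is not the level of the gene's mRNA or protein, neither of which was analysed here.

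Levels are in SRPBM, the unit the authors gave their table, which in circRNA work means junction reads relative to the mapped reads of a library. Summed over all circRNAs a library held 28922 to 41080 SRPBM, which corresponds to 80442 to 130487 times the value of a single read pair, taking a library's smallest value as 2 read pairs. Among marker genes, 11 of 15 hepatocyte markers had circles, with summed levels of 657 to 996.6 SRPBM in PZH and 651.4 to 1072 in Control libraries. The summed stellate cell marker circles were 8.93 to 22.2 SRPBM in PZH and 3.57 to 9.60 in Control libraries. They came from 5 of 14 markers, namely Reln, Ank3, Dlc1, Rbms3 and Zeb2. No circle was listed for Acta2, Col1a1, Col1a2, Col3a1, Des, Hhip, Lrat, Pdgfra or Pdgfrb. The endothelial sums, from 9 of 12 markers (none for Cdh5, Kdr and Mef2c), were 25.0 to 38.9 in PZH and 31.2 to 58.7 in Control libraries. These markers include Ptprb, itself a phosphatase host with 5 member circles and a mean sum of 1.825 SRPBM. For macrophages (4 of 10 markers) the sums were 40.6 to 65.7 and 34.1 to 57.1, for cholangiocytes (4 of 10) 70.1 to 99.6 and 57.8 to 102.6, and for lymphocytes (2 of 12) 0 to 53.5 and 2.86 to 56.7. In whole liver, fewer cells of a type and less RNA per cell cannot be told apart, and the part of these cell types in the values below was not tested.

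The junctions of the circles on which the comparisons turn are shown first, because the junction is what the reads identify. Each was read from GENCODE M21 transcript sequences and is written 5′ to 3′ as RNA-sense DNA letters, with the last 20 bases of the last exon in lower case and the first 20 bases of the first exon in capitals, so the back-splice lies where the case changes. Exons are numbered along the matched transcript. The Dusp16 pair share the capitals and differ in the lower-case side, whereas the 4 Ppp4r1 circles that end at exon 10 share the lower-case side and differ in the capitals.
Dusp16 exons 2 to 3: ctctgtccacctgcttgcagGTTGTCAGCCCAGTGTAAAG
Dusp16 exons 2 to 4: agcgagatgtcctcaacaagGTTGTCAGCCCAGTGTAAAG
Ppp4r1 exons 3 to 10, outer start: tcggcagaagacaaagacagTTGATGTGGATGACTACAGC
Ppp4r1 exons 3 to 10, inner start: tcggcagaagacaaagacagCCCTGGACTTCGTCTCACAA
Ppp4r1 exons 5 to 10: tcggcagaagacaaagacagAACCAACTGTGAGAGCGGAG
Ppp4r1 exons 7 to 10: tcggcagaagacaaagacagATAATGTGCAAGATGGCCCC
Ppp4r1 exons 17 to 18: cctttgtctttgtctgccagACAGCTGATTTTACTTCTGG
Ppp1r13b exons 2 to 4: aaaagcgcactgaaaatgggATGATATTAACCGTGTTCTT
Ppp2ca exons 3 to 5: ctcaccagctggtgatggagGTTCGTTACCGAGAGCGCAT
Ppp2r5e exons 4 to 5: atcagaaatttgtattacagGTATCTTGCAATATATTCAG
Ppp4r3a exons 11 to 12: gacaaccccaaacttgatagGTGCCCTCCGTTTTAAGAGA
Ptprk exons 19 to 23: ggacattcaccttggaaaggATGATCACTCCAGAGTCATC
Ptprg exons 3 to 4: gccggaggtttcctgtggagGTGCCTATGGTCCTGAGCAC

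Most phosphatase circles were seen in few libraries. Of the 215, 97 (45.1%) were above 0 in 1 library, against 44.2% of all circRNAs, and 8 (3.72%) were above 0 in all 12 libraries, against 6.62%. Their summed level was 287.6 ± 43.0 SRPBM (SD, n = 6) in PZH livers and 268.8 ± 48.6 (SD, n = 6) in Control livers, with overlapping ranges of 222.0 to 354.5 and 212.8 to 343.7. This sum was 0.792% ± 0.067 (SD, n = 6) of all circRNA SRPBM in PZH and 0.760% ± 0.042 (SD, n = 6) in Control libraries. Between 45 and 76 members were above 0 in a PZH library and between 50 and 72 in a Control library.

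A test for a difference between PZH and Control was made with limma on log2(SRPBM + 0.636) for the 3870 circRNAs above 0 in at least 6 of 12 libraries, with Benjamini-Hochberg adjustment over all 3870. Where a group holds zeros, the size of a fold change is set in part by the pseudocount of 0.636 SRPBM. With 0.159 SRPBM the log2 fold changes described below were 2.93 for Ptprg exons 3 to 4 and -2.69 for Ptprk exons 19 to 23. They were -2.51 for Dusp16 exons 2 to 4 and -2.35 for Ppp4r3a exons 11 to 12. In the same order, 0.636 SRPBM gave 1.74, -1.74, -1.55 and -1.41, and 1 SRPBM gave 1.39, -1.45, -1.26 and -1.13. Of the members, 50 (23.3%, against 23.5% of all circRNAs) passed this filter. None of the 50 had an adjusted p under 0.05, where the background over all tested circRNAs was 0.0517% higher and 0% lower in PZH. The smallest adjusted p of a member was 0.559. At an unadjusted limma p under 0.05 there were 7 members (14.0%, against 7.55% of all tested circRNAs): 2 with higher levels in PZH (background 4.55%) and 5 with lower levels (background 3.00%). Leaving out each library in turn gave 1 to 3 higher members, with 1 without Control replicate 5 or PZH replicate 6, and 2 to 6 lower members, with 2 without PZH replicate 5 and 3 without Control replicate 1, 3 or 5. The fold change was positive in 23 and negative in 27 (46.0% positive, against 54.3% of all tested), and the median log2 fold change was -0.09, against 0.06 over all tested circRNAs. No tested member had groups that did not overlap, against 0.491% of tested circRNAs with all PZH values above and 0.181% with all below.

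**Figure D1:**
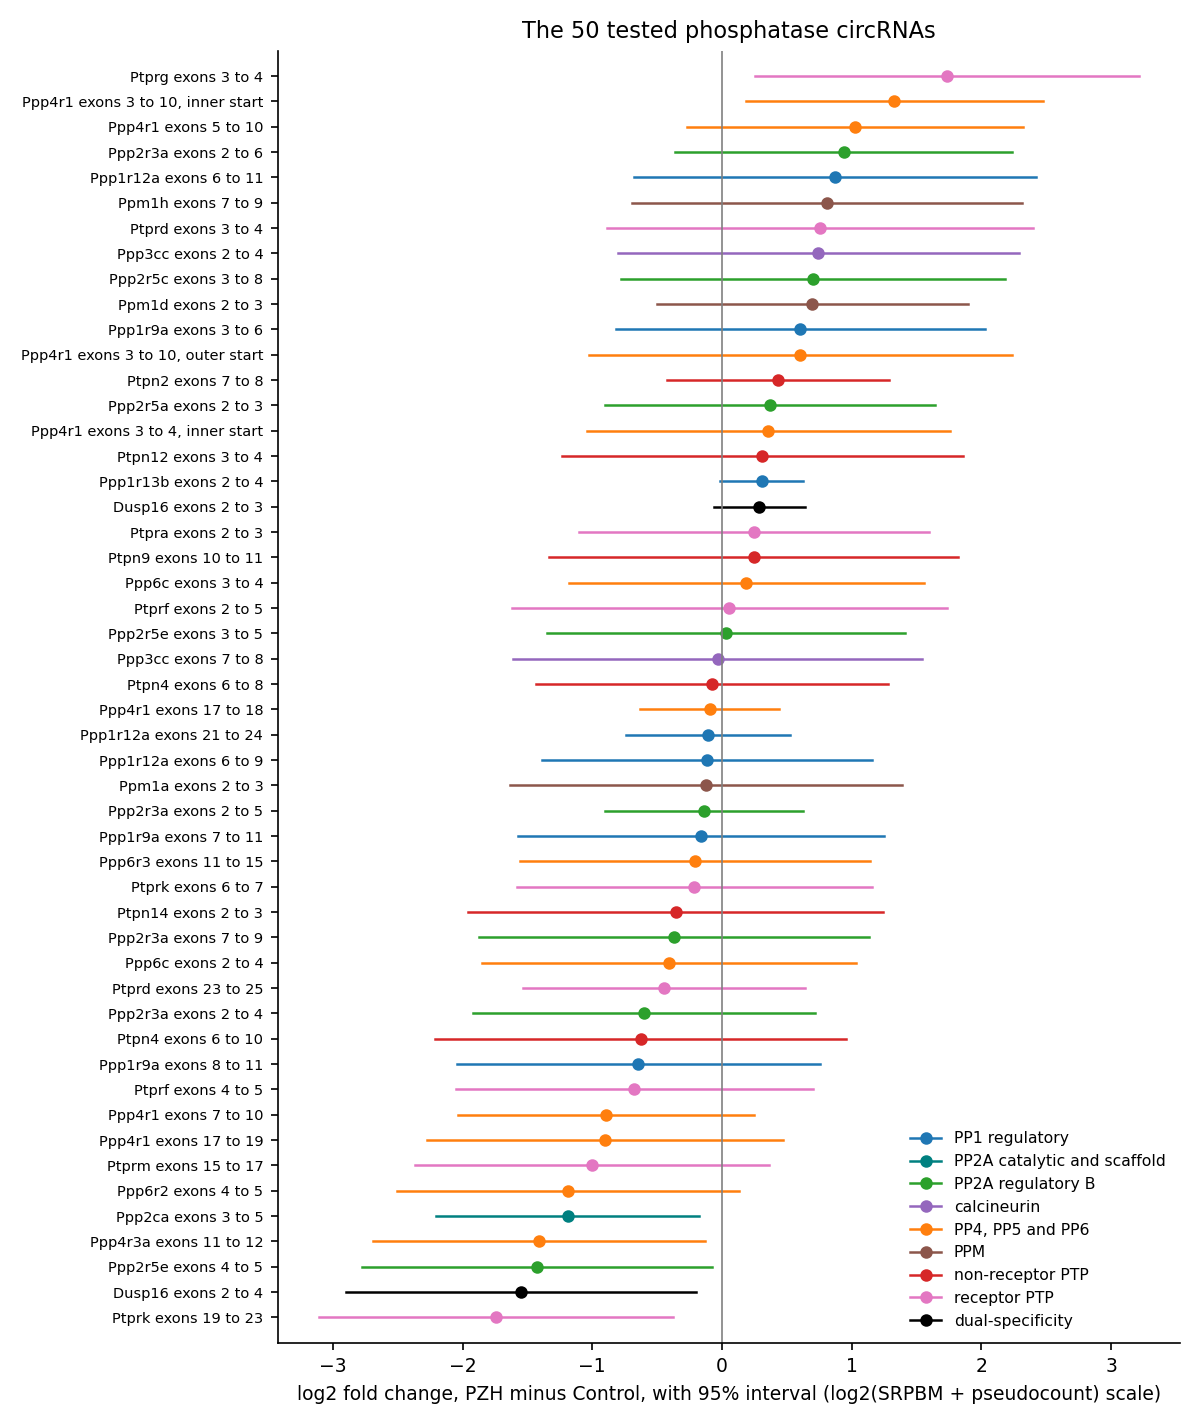
log2 fold change (PZH minus Control, on the log2(SRPBM + pseudocount) scale) of each of the 50 tested phosphatase circRNAs with its 95% interval from limma, coloured by role and sorted by size. The 7 intervals that leave out 0 belong to the 7 circles with an unadjusted p under 0.05, and none of the 50 passed after adjustment; where 2 circles share exon numbers, the outer start lies farther upstream than the inner start.

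The PP1 regulatory subunits, which steer PP1 to its substrates, held the largest share of the family's signal: 36 circles from 9 of 40 annotated genes made up 30.8% of the members' SRPBM. Their mean sum was 92.0 SRPBM in PZH and 79.3 in Control livers, and most of it came from 1 Ppp1r13b circle. The most abundant phosphatase circle came from Ppp1r13b, which encodes ASPP1, a PP1-binding partner of p53. It joins exons 2 to 4 (345 bases of exon, chr12:111858210-111872433, minus strand, GRCm38) and ranked 85 of all circRNAs by mean level, at about 161 read pairs per library. The Ppp1r13b exons 2 to 4 circle had 44.0 (lowest), 55.2 (median) and 74.8 SRPBM (highest) in PZH livers and 37.5, 48.2 and 52.2 SRPBM in Control livers. PZH replicates 4 to 6 lay above every Control liver and the other 3 lay within the Control range. The means were 57.5 ± 11.9 SRPBM (SD, n = 6) and 45.8 ± 6.02 SRPBM (SD, n = 6), a log2 fold change of 0.31 (SE 0.15, 95% interval -0.01 to 0.63) with a limma p of 0.0583 and an adjusted p of 0.654. A further 6 Ppp1r13b circles were listed, and this circle made up 94.0% of the gene's summed level.

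Ppp1r12a encodes MYPT1, the subunit that targets PP1 to myosin. It had 13 circles, of which the exons 21 to 24 circle (chr10:108268572-108274188, plus strand) was the highest, with 8.33, 12.3 and 17.4 SRPBM (lowest, median, highest) in PZH and 7.86, 11.6 and 27.9 SRPBM in Control livers. The PZH range lay within the Control range, and the log2 fold change was -0.11 (95% interval -0.74 to 0.53, limma adjusted p 0.960). In 5 PZH and 3 Control livers a circle from exons 6 to 11 of the same gene was above 0, at a log2 fold change of 0.87 with an SE of 0.75 (adjusted p 0.808). None of the 7 tested PP1 regulatory circles had an unadjusted p under 0.05, and their log2 fold changes ran from -0.65 to 0.87. Of the catalytic PP1 genes, only Ppp1cb had circles (2 in the table, neither tested): its exons 2 to 8 circle had 5.47 and 2.28 SRPBM in 2 PZH livers and 0.876 in 1 Control liver, and was listed at 0 in the other 9.

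**Figure D2:**
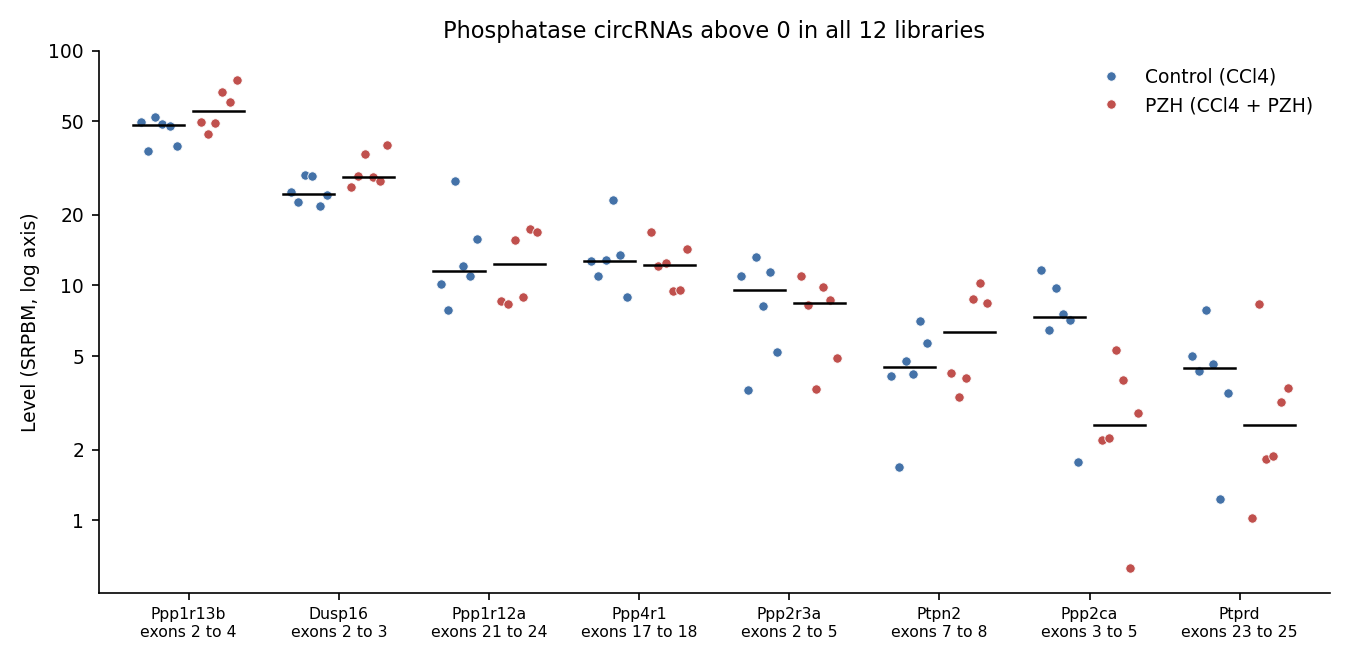
SRPBM (log axis) in each liver of the 8 phosphatase circRNAs above 0 in all 12 libraries; each point is 1 liver, and the black lines are group medians. The 2 groups overlap for all 8, and for Ppp2ca exons 3 to 5 the median was 7.35 in Control and 2.55 in PZH livers.

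For PP2A, among the most abundant serine/threonine phosphatases of most tissues, the catalytic and scaffold genes had a single host, Ppp2ca, which encodes the alpha catalytic subunit. Its exons 3 to 5 circle (426 bases of exon, chr11:52117987-52119304, plus strand) had 0.624, 2.55 and 5.32 SRPBM (lowest, median, highest) in PZH livers and 1.77, 7.35 and 11.6 SRPBM in Control livers. Of the 6 Control livers 5 lay above every PZH liver, and Control replicate 6, at 1.77, lay within the PZH range. The means were 2.87 ± 1.62 SRPBM (SD, n = 6) in PZH and 7.39 ± 3.35 SRPBM (SD, n = 6) in Control livers, and the log2 fold change was -1.19 (SE 0.49, 95% interval -2.21 to -0.17) with a limma p of 0.0239 and an adjusted p of 0.578. It was the only one of the 8 circles above 0 in all libraries with an unadjusted p under 0.05. Over all alternatives run for this circle the log2 fold change stayed between -1.51 and -0.93 and the adjusted p between 0.0814 and 0.667.

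The regulatory B subunits of PP2A, which choose its substrates, gave 33 circles from 6 of 12 annotated genes, 8 of them tested. Ppp2r3a, encoding a calcium-binding B subunit, had 10 circles, and 5 of them started at exon 2. The highest of these, exons 2 to 5 (chr9:101175328-101194425, minus strand), had 3.62, 8.45 and 10.9 SRPBM in PZH and 3.59, 9.59 and 13.2 SRPBM in Control livers, with a log2 fold change of -0.14 (95% interval -0.90 to 0.62). The lengthened form from exons 2 to 6 had values above 0 in 4 PZH and 2 Control livers (log2 fold change 0.94, SE 0.63, adjusted p 0.735). The circle with the smallest p of this role came from Ppp2r5e, a B56 subunit. Its exons 4 to 5 circle (chr12:75485132-75493515, minus strand) had 0, 1.79 and 8.15 SRPBM in PZH and 1.76, 5.22 and 7.75 SRPBM in Control livers. All PZH livers but 1 were at or below 2.35 SRPBM and replicate 6 was above every Control liver, so the ranges overlapped fully; the log2 fold change was -1.43 (SE 0.65), with a limma p of 0.0390 and an adjusted p of 0.619.

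PP4, PP5 and PP6 hosts gave 42 circles from 7 of 11 annotated genes, of which 12 were tested and 16.7% of the family's SRPBM came. Ppp4r1, a regulatory subunit of PP4, had 11 circles in 2 regions of the gene. At the 3′ part of the gene, the exons 17 to 18 circle (256 bases of exon, chr17:65837684-65838024, plus strand) had 9.44, 12.3 and 16.96 SRPBM in PZH and 8.96, 12.8 and 23.2 SRPBM in Control livers, with means of 12.5 ± 2.87 and 13.7 ± 4.94 SRPBM (SD, n = 6 each) and a log2 fold change of -0.10 (95% interval -0.63 to 0.44). At the 5′ part, 4 circles ended at exon 10. The largest of them by level started at the inner splice site of exon 3 (chr17:65803211-65816050) and had 4.45, 9.33 and 13.3 SRPBM in PZH and 0, 4.05 and 8.39 SRPBM in Control livers. Of the PZH livers 3 lay above every Control liver and 1 Control liver was listed at 0; the log2 fold change was 1.33 (SE 0.55, 95% interval 0.18 to 2.48), with a limma p of 0.0251 and an adjusted p of 0.578. Without Control replicate 3, the liver at 0, it was 0.84. The exon 3 to 10 circle from the outer splice site, which starts at 65803160, had a log2 fold change of 0.60 (SE 0.79) and the exons 5 to 10 circle 1.03 (SE 0.62). For exons 7 to 10, which was above 0 in 2 PZH and 5 Control livers, it was -0.89 (SE 0.55). Circles with a common end thus had fold changes of either sign, and none of these 4 passed after adjustment.

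**Figure D3:**
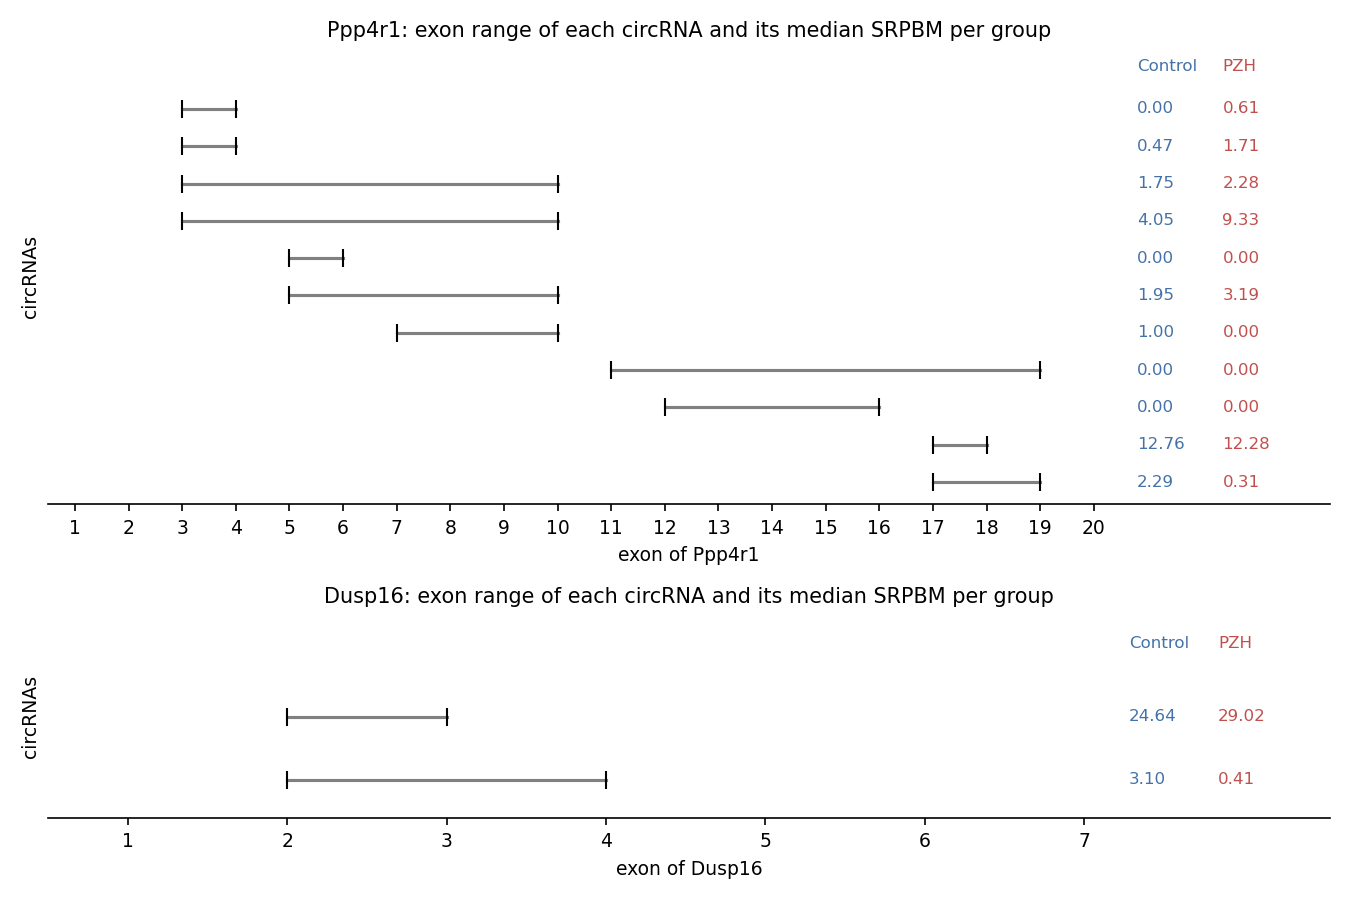
Exon range (first to last exon, numbered along the transcript) of every listed circRNA of Ppp4r1 (11 circles) and Dusp16 (2 circles), with its median SRPBM over 6 Control and 6 PZH livers at the right. Among the Ppp4r1 circles that end at exon 10, the inner-start exons 3 to 10 circle (the lower of the pair) has medians of 4.05 and 9.33; for Dusp16 exons 2 to 4 they are 3.10 and 0.41.

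Ppp4r3a encodes another PP4 regulatory subunit, known as SMEK1. Its exons 11 to 12 circle (chr12:101043443-101044659, minus strand) was listed at 0 in 3 PZH livers, was 0.931, 1.90 and 2.13 SRPBM in the other 3, and was 1.91, 2.34 and 4.22 SRPBM (lowest, median, highest) in Control livers. Of the Control livers 4 lay above every PZH liver; the log2 fold change was -1.41 (SE 0.62), with a limma p of 0.0321 and an adjusted p of 0.606. With about 5.35 read pairs per library this circle is near the counting limit. Other circles with an unadjusted p under 0.05 were also low. Mean levels were 2.225 SRPBM for Dusp16 exons 2 to 4, 2.65 for Ptprg exons 3 to 4 and 3.07 for Ptprk exons 19 to 23. The PP6 subunit Ppp6r2 had an exons 4 to 5 circle above 0 in 4 PZH and 6 Control livers (log2 fold change -1.19, SE 0.63, limma p 0.0760, adjusted p 0.686). Ppp6r3 had the largest number of circles of any member gene, 14, but only exons 11 to 15 was tested (log2 fold change -0.21, SE 0.65).

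Calcineurin, the calcium-activated phosphatase, and the PPM enzymes had few circles. Calcineurin genes gave 7 circles from 4 of 5 genes, and the most abundant, exons 2 to 4 of the gamma catalytic gene Ppp3cc, was above 0 in 5 PZH and 4 Control livers, with a log2 fold change of 0.74 (SE 0.74 and adjusted p 0.846), which was 0.42 without Control replicate 1 or 6, 0.48 without PZH replicate 3 and 1.215 without PZH replicate 1. PPM genes gave 7 circles from 4 of 12 genes. Ppm1a, known for dephosphorylating Smad proteins of the TGF-beta pathway, had 1 circle, exons 2 to 3 (chr12:72783683-72786789, plus strand), which holds the gene's start codon. It had 0, 5.60 and 13.5 SRPBM in PZH and 0, 7.09 and 12.6 SRPBM in Control livers and a log2 fold change of -0.13 (95% interval -1.64 to 1.39). Ppm1d, which encodes the p53-induced phosphatase Wip1, had an exons 2 to 3 circle with a log2 fold change of 0.70 (SE 0.58 and adjusted p 0.799), which was 0.27 without Control replicate 5.

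Non-receptor tyrosine phosphatases gave the largest number of circles of any role, 49 from 11 of 17 genes, but 27 of them were above 0 in 1 library and 6 were tested. Ptpn9, which carries a lipid-binding domain beside its phosphatase domain, had the most abundant one, exons 10 to 11 (chr9:57056714-57057861, plus strand), with 0, 12.4 and 16.4 SRPBM in PZH and 0, 9.32 and 16.1 SRPBM in Control livers. A single liver of each group was listed at 0 while the others were at 6.83 or more, and the log2 fold change was 0.24 (95% interval -1.33 to 1.82). Ptpn2, which dephosphorylates JAK kinases and STAT proteins, had an exons 7 to 8 circle (chr18:67675720-67677862, minus strand) with 3.35, 6.33 and 10.2 SRPBM in PZH and 1.68, 4.47 and 7.06 SRPBM in Control livers. Of the PZH livers 3 lay above every Control liver, and the means were 6.51 ± 2.96 and 4.59 ± 1.80 SRPBM (SD, n = 6 each), a log2 fold change of 0.43 (SE 0.41, 95% interval -0.43 to 1.29, adjusted p 0.842), which was 0.21 without Control replicate 2. None of the 6 had an unadjusted p under 0.05.

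Receptor tyrosine phosphatases gave 35 circles from 8 of 21 genes (a count of symbols that takes in Ptprcap, a binding partner of a receptor phosphatase and no enzyme, which had no circle). They held both the member with the smallest p and the member with the largest positive fold change. Ptprk, a cell adhesion receptor that binds its own kind on neighbouring cells, had an exons 19 to 23 circle (347 bases of exon, chr10:28569897-28575706, plus strand). It was listed at 0 in 3 PZH livers and was 2.33, 2.98 and 3.29 SRPBM in the others, against 2.20, 4.09 and 8.56 SRPBM (lowest, median, highest) in Control livers. Again 5 of the 6 Control livers lay above every PZH liver; the log2 fold change was -1.74 (SE 0.66, 95% interval -3.11 to -0.38), with a limma p of 0.0148 and an adjusted p of 0.559. A further Ptprk circle, exons 6 to 7, had a log2 fold change of -0.21 (SE 0.66).

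Ptprg, a receptor phosphatase with a carbonic anhydrase-like outer domain, had the opposite order. Its exons 3 to 4 circle (329 bases of exon, chr14:11952716-11962722, plus strand) was above 0 in all 6 PZH livers, at 1.55, 4.11 and 6.00 SRPBM (lowest, median, highest), and in 2 of 6 Control livers, at 2.48 and 6.44 SRPBM. The other 4 Control livers were listed at 0, but the highest value of all was in Control replicate 3. The log2 fold change was 1.74 (SE 0.71, 95% interval 0.26 to 3.21), with a limma p of 0.0236 and an adjusted p of 0.578. The LAR-type receptor Ptprd had an exons 23 to 25 circle above 0 in all libraries, with means of 3.32 ± 2.64 SRPBM (SD, n = 6) in PZH and 4.43 ± 2.17 (SD, n = 6) in Control livers and a log2 fold change of -0.45 (SE 0.52), which was -0.24 without PZH replicate 1, -0.27 without Control replicate 3, -0.71 without Control replicate 5 and -0.73 without PZH replicate 2. For the adhesion receptor Ptprm, exons 15 to 17 had a log2 fold change of -1.001 (SE 0.66 and adjusted p 0.731).

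**Figure D4:**
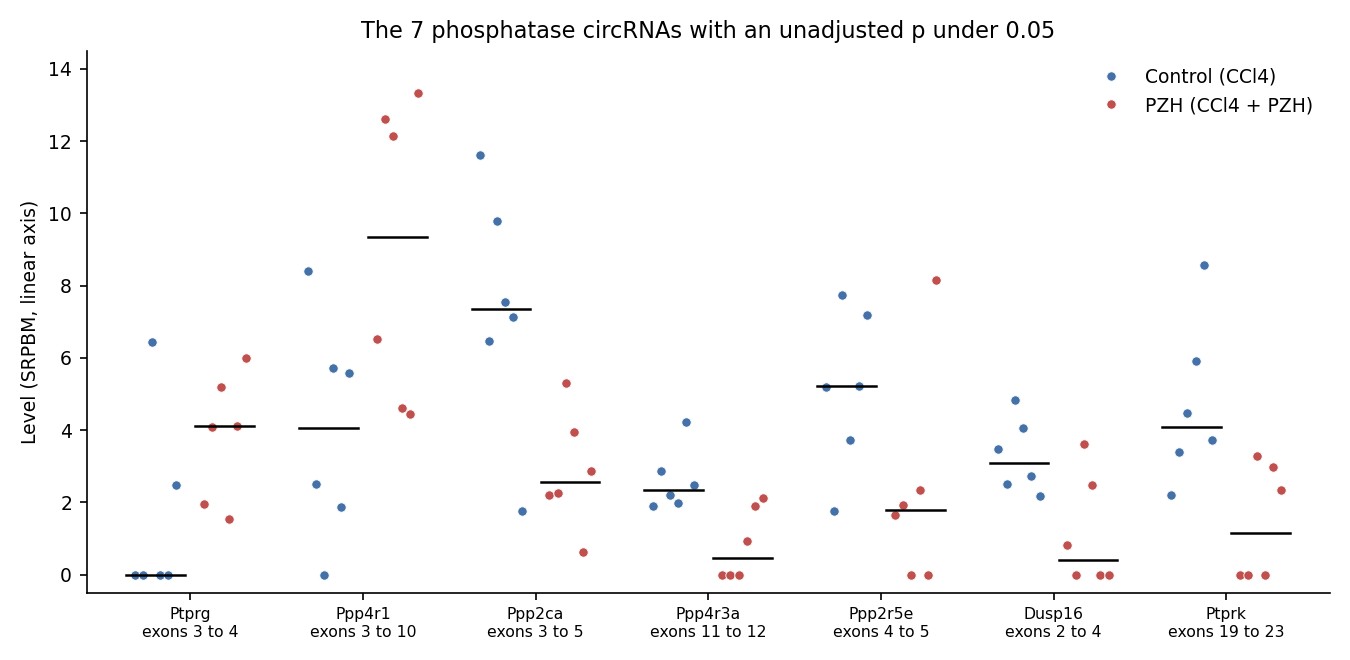
SRPBM (linear axis) in each liver of the 7 phosphatase circRNAs with an unadjusted limma p under 0.05, ordered from the largest positive to the largest negative log2 fold change; each point is 1 liver, and the black lines are group medians. The groups overlap for all 7, and points at 0 are livers in which the circle was listed at 0; the Ppp4r1 circle is the inner-start one.

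Of 24 annotated dual-specificity genes, 23 had no circle, and the last, Dusp16, held 11.0% of the family's SRPBM in 2 circles. Dusp16 encodes MKP-7, which inactivates the MAP kinase JNK. The exons 2 to 3 circle (728 bases of exon, chr6:134758619-134761434, minus strand) had 26.2, 29.0 and 39.5 SRPBM in PZH and 21.8, 24.6 and 29.7 SRPBM in Control livers. PZH replicates 3 and 6 lay above every Control liver; the means were 31.4 ± 5.30 and 25.5 ± 3.30 SRPBM (SD, n = 6 each), and the log2 fold change was 0.29 (SE 0.17, 95% interval -0.07 to 0.64, limma p 0.105, adjusted p 0.708). The exons 2 to 4 circle (chr6:134739812-134761434), which begins at the same splice site, was listed at 0 in 3 PZH livers, was 0.824, 2.48 and 3.62 SRPBM in the others, and was 2.17, 3.10 and 4.84 SRPBM (lowest, median, highest) in Control livers. Control replicates 3 and 4 lay above every PZH liver; the log2 fold change was -1.55 (SE 0.65, 95% interval -2.90 to -0.20), with a limma p of 0.0262 and an adjusted p of 0.578.

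Of the 215 members, 155 share an end with another circle of their gene, a share that was not computed over all circRNAs. Because of this sharing, the balance between circles of a gene was compared directly. For each host with at least 2 tested circles, the log2 ratio of its highest circle to the sum of its other tested circles was compared between groups with a 2-sided exact permutation test over all 924 assignments of livers, and p-values were adjusted over the 868 such hosts in the table. This ratio was defined after the levels were seen, as no member gene had 2 circles above 0 in all 12 libraries. Of 12 phosphatase hosts, 2 had an exact unadjusted p under 0.05, against a background of 8.87% of hosts, and none had an adjusted p under 0.05, as was so for 0% of all hosts; the smallest p this test can give is 0.00216. The number at an unadjusted p under 0.05 was 1 without PZH replicate 2, 3, 4 or 5 or Control replicate 2, 3, 5 or 6. For Dusp16 the ratio was 4.60 ± 1.25 (SD, n = 6, log2) in PZH and 2.76 ± 0.235 (SD, n = 6) in Control livers, a difference of 1.84 (exact permutation p = 0.00433, adjusted 0.434). Its exons 2 to 3 circle made up 96.7% of the pair in PZH and 88.7% in Control livers on average, and the ratios ran from 3.12 to 5.98 and from 2.47 to 3.15, overlapping at the edge. The exons 2 to 4 circle was listed at 0 in 3 PZH livers, whose ratios therefore rest on the pseudocount: the difference was 1.54 with a pseudocount of 1 SRPBM and 2.81 with 0.159 SRPBM. For Ppp2r5e the ratio of exons 4 to 5 to exons 3 to 5 differed by -1.46 (exact permutation p = 0.0498, adjusted 0.561, n = 6 each). The balance of Ppp4r1 exons 17 to 18 against its 6 other tested circles differed by -0.61 (exact permutation p = 0.0606, adjusted 0.612, n = 6 each). Ptprk and Ptprd followed with -1.53 and -1.20 (exact permutation p = 0.178 and 0.206, adjusted 0.766 and 0.797, n = 6 each). In an alternative setting, run for all 12 hosts, the highest circle was set against the second highest alone. For Ppp4r1, where that is the inner-start exons 3 to 10, the difference was -1.425 (exact permutation p = 0.0325, adjusted 0.557, n = 6 each). No background share is given for this setting. The other hosts named here have 1 other tested circle each, so the setting leaves their ratios unchanged.

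Summing all circles of a gene, 32 of the 52 hosts were testable, 16 with a positive and 16 with a negative log2 fold change (median -0.01, against 0.06 over the 2207 host genes tested). None had a limma adjusted p under 0.05, as was so for 0% of all hosts in either direction, and 2 had an unadjusted p under 0.05, against 8.11% of all hosts; this number was 0 without Control replicate 2 and 1 without Control replicate 1 or 4 or PZH replicate 4 or 5. Ppp1r13b summed to 61.7 ± 13.3 SRPBM (SD, n = 6) in PZH and 48.1 ± 6.78 (SD, n = 6) in Control livers (log2 fold change 0.34, SE 0.16, limma p 0.0447, adjusted p 0.598). Ptprg summed to 1.55 to 6.995 SRPBM in PZH livers and to 0 to 7.49 in Control livers, 3 of which were at 0 (log2 fold change 1.70, SE 0.74, limma p 0.0304, adjusted p 0.558). By contrast, the sum of the 2 Dusp16 circles had a log2 fold change of 0.17 (SE 0.18), and that of Ppp4r1 0.30 (SE 0.21).

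The members' build is given beside that of all circRNAs, without a test. Of the 212 with both ends on exon boundaries, 114 (53.8%) held 2 or 3 exons and 6 (2.83%) a single exon, against 51.9% and 3.99% of 15705 circRNAs with such ends. None of the 50 tested members held a single exon, against 4.85% of all tested circRNAs with such ends. The median length of exon sequence was 430.5 bases (417 over all), and 53 (25.0%, against 24.7%) began at exon 2. The intron before the circle had a median of 7702.5 bases, against 5613 over all circRNAs, and the intron after it 4349 bases, against 4442. Among circles above 0 in at least 6 libraries the order was reversed for both. The intron before was 8090 bases in members, against 8567, and the intron after 8209, against 7186. Coding sequence alone made up 188 of the 212 members, against 13621 of the 15705 circRNAs with such ends. The start codon was held by 19 of the 212, against 1700 of the 15705, and the stop codon by 1, against 167.

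The exons of some circles encode parts of the enzyme's active site. All 13 circles of PP1, PP2A, calcineurin, PP5 and PP6 catalytic genes lay on transcripts that encode 3 conserved metal-binding and catalytic motifs of these enzymes, and 10 of the 13 spanned at least 1 of these motifs, 4 of the 5 tested circles among them (Ppp2ca exons 3 to 5, Ppp3cc exons 2 to 4 and both Ppp6c circles). Of 83 circles of tyrosine and dual-specificity phosphatase genes whose transcripts encode the cysteine-containing active-site loop, 4 spanned it: 2 from Ptpn2 and 1 each from Ptpn22 and Ptprk. None of the 17 tested circles of those genes spanned it, the Dusp16, Ptprk exons 19 to 23 and Ptprg circles included. The motifs were searched in the translated coding sequence of the matched transcript and were counted as spanned where they lay wholly within the circle's exons, so the counts describe exon positions and not a protein product. With 3 motifs to meet in the serine/threonine enzymes (Ppp2ca exons 3 to 5 holds 1 of its 3) and a single kind of loop in the tyrosine enzymes, the counts of the families are on different scales and were not compared.

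The 165 members below the filter were thinly listed in both groups. Of these, 60 were above 0 in PZH libraries only, 54 in Control libraries only and 51 in both, none was above 0 in 4 or more libraries of a group while listed at 0 throughout the other, and the highest value in any library was 7.51 SRPBM.

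Other genes of the pathway were read from 3 lists, chosen with earlier results of these data known. Their counts and medians are therefore described beside the background and are no support for a difference. Of 47 other protein phosphatase genes, 22 had circles (84 in all, 23 tested): 1 had an unadjusted p under 0.05, with lower levels in PZH (background 3.00% lower and 7.55% in either direction), and the median log2 fold change was 0.16, against 0.06 over all tested circRNAs. That circle was exons 3 to 4 of Ssh2, a phosphatase of the actin-severing protein cofilin, with 0, 8.15 and 14.2 SRPBM in PZH and 5.81, 13.0 and 20.4 SRPBM in Control livers (log2 fold change -1.69, SE 0.68, limma p 0.0211, adjusted p 0.567). The phosphatases Tns3 and Eya3 had log2 fold changes of 0.47 (SE 0.27) and 0.30 (SE 0.20), and the mRNA-capping enzyme Rngtt -1.24 (SE 0.62). Of 54 genes for phosphatase partners and inhibitors, 25 had circles (20 tested), 1 of them with an unadjusted p under 0.05 (background 7.55% in either direction), and the median log2 fold change was 0.03. This was the liprin Ppfibp2, exons 2 to 3, at -1.37 (SE 0.62, limma p 0.0377, adjusted p 0.616). The PP2A inhibitor family member Anp32b, the calcineurin inhibitor Cabin1 and the PP2A-binding striatin Strn4 had log2 fold changes of 0.50, 0.46 and -0.82, with limma unadjusted p of 0.0760, 0.109 and 0.221.

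Among 54 genes for tyrosine kinases and insulin signalling, which the tyrosine phosphatases act against, 36 circles were tested, 3 with an unadjusted p under 0.05 and higher levels in PZH (background 4.55%) and none with lower levels (background 3.00%). Their median log2 fold change was 0.21, against 0.06 over all tested, and none passed after adjustment. As this list too was chosen with earlier results known, its counts and median are no support for a difference. Sos2, a Ras activator, had an exons 2 to 5 circle at 1.91 to 3.94 SRPBM in PZH livers and listed at 0 in all 6 Control livers (limma p 7.89e-05, adjusted p 0.102). The growth factor receptor Fgfr2, exons 3 to 6, had 22.2, 26.4 and 32.5 SRPBM in PZH and 13.2, 15.5 and 21.9 SRPBM in Control livers (log2 fold change 0.66, SE 0.19, limma p 0.00269, adjusted p 0.408). For Fgfr2 all PZH values lay above all Control values, as they did for 0.491% of tested circRNAs. The Sos2 circle passed the filter through its PZH values alone, so its groups could not overlap. That separation is therefore no support for a difference, and the size of its fold change and its limma p rest in part on the pseudocount. The receptor circles Erbb3 exons 11 to 13 and Egfr exons 12 to 16 had log2 fold changes of -1.21 (SE 0.62) and -1.31 (SE 0.70).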

How the data were processed

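The deposited table holds a signal in SRPBM per circRNA and library, as named by the authors. Per the submitters' processing notes, Trim Galore and STAR were used with GRCm38 (mm10). Their versions, the circRNA caller, its filters and how SRPBM was computed were not given in the sources used here. Positions were matched to GENCODE M21 exons. Per the labels, the samples are livers of separate mice, 6 per group. Every circRNA with values above 0 in 6 or more of 12 libraries entered limma 3.58.1 (R 4.3.3, variance trend, 2-sided) on log2(SRPBM + 0.636), the pseudocount being the median of the libraries' smallest values, with Benjamini-Hochberg adjustment over all circRNAs or hosts and a threshold of 0.05. The limma test, but not the permutation test, was tried on simulated data with changes set in circRNAs above the median level. Of 100 circRNAs changed by a log2 of 1 it recovered 30%, and of 100 changed by 2 it recovered 60%. Changes of this size can thus be missed, and a result that did not pass does not show equal levels. Means ± SD of levels are given only for circRNAs above 0 in all 12 libraries and for sums over several circRNAs, with their share of all SRPBM. The Dusp16 log2 ratio also has a mean ± SD, though its PZH values rest in part on the pseudocount. SRPBM carries no read count, so depth is known only through the smallest values, and no counting intervals are given. The read pair numbers are estimates that take a library's smallest value as 2 read pairs. Between 56.8% and 63.8% of a library's low values lay near a whole number of read pairs on this scale.

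The members, roles, marker and gene lists were chosen with earlier results of these data known. Named were the 10 members with the highest mean, the 8 smallest p per direction, the top circle and smallest p of each role, the 5 smallest within-host p and 2 circles per direction in each list. Pseudocounts, filters, scalings, the test, a replicate block and each library left out were tried as alternatives.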

Additional observations from a re-analysis of the deposited data

Results flagged for a closer look

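In 5 of 52 groups of 6 livers examined for the named circles, 1 liver stood far from the others. Its gap to the nearest neighbour was more than 0.625 of the group's range. About 1 in 20 groups of 6 normally distributed values pass this cut-off. That rate does not apply to levels that hold zeros, so the count was not compared with a chance rate. Control replicate 4 had 23.2 SRPBM of Ppp4r1 exons 17 to 18, the others 8.96 to 13.5. Control replicate 1 had 2.12 SRPBM of Ppp2r3a exons 2 to 6, the others 0 to 0.587. PZH replicate 6 had 8.15 SRPBM of Ppp2r5e exons 4 to 5, the others 0 to 2.35. Control replicate 5 had 0.876 SRPBM of Ppp1cb exons 2 to 8, the others 0, a pattern that always passes the cut-off. PZH replicate 2 had 8.32 SRPBM of Ptprd exons 23 to 25, the others 1.02 to 3.67.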

How the results depend on the processing

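No phosphatase circle, host sum or within-host ratio had an adjusted p under 0.05 under any alternative run. The numbers at an unadjusted p under 0.05 moved. For circles higher in PZH (2 as reported) the number was 0 among circles above 0 in all 12 libraries, 0 with the exact rank-sum test, 4 without a filter, and 1 to 3 when each library was left out, with 1 without Control replicate 5 or PZH replicate 6. For circles lower in PZH (5) it was 1 among circles above 0 in all 12 libraries, which number 8, and 2 to 6 with libraries left out: 3 without Control replicate 1, 3 or 5 and 2 without PZH replicate 5. For host sums (2) it was 1 with a filter of 3 libraries and 0 to 3 with libraries left out: 0 without Control replicate 2 and 1 without Control replicate 1 or 4 or PZH replicate 4 or 5. For within-host ratios (2) it was 1 with the lower pseudocount of 0.159 and 1 to 3 with libraries left out. The cause of these shifts was not tested.

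The libraries share replicate numbers only: same-numbered libraries correlated at -0.122 to 0.0299 and none best with its own number. With the replicate number as a block, the numbers were again 2 higher and 5 lower circles and 0 calls, and 1 host sum; for Dusp16 the exact sign-flip p of the ratio was 0.0313.

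A few named circles with log2 fold changes near 0 changed sign when 1 library was left out. Ppp1r12a exons 21 to 24 ranged from -0.24 to 0.11 (positive without Control replicate 3), Ppp4r1 exons 17 to 18 from -0.20 to 0.063 (positive without Control replicate 4), Ptpn9 exons 10 to 11 from -0.44 to 0.98 (negative without Control replicate 1), Ppp2r3a exons 2 to 5 from -0.35 to 0.037 (positive without PZH replicate 3) and Ppm1a exons 2 to 3 from -0.74 to 0.46 (positive without Control replicate 3 or 4 or PZH replicate 3). With the pseudocount of 0.159, Ppp4r1 exons 5 to 10 (1.65) and 7 to 10 (-1.68), Ppp2r3a exons 2 to 6 (1.56), Ppp1r12a exons 6 to 11 (1.47), Ppp6r2 exons 4 to 5 (-1.82) and Ptprm exons 15 to 17 (-1.65) also moved by over 1.5 times, with adjusted p again above the threshold. The planned ratio over circles above 0 in all 12 libraries gave no value. A circle of a few read pairs per library can be missed by chance, so zeros do not show absence.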
